A study of Rattus norvegicus with 9 samples.

Results

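Expression of 7 cell cycle genes, Mcm6, Rrm2, Mki67, Top2a, Aurkb, Tpx2 and Ube2c, was examined in arteries of adult rat offspring. The genes were taken by symbol, and all 7 were found, each on 1 line, among the 30452 features of every library. Dams ate standard chow in pregnancy and drank either 20% sucrose or ordinary water, and their offspring were sampled at 3 to 5 months of age. There were 3 groups of 3 libraries each: mesenteric artery of offspring of sucrose-drinking dams (high sucrose, replicates 1, 2 and 3), pulmonary artery of offspring of water-drinking dams (control, replicates 1, 2 and 4), and mesenteric artery of the same kind of controls (replicates 1, 2 and 3). The arteries were whole vessels dissected under a microscope, so each library mixes the cell types of the wall and of any tissue attached to it. The labels do not tell whether the 3 samples of each group are different animals, and p-values therefore measure only the spread between these samples, which may be technical. Pulmonary artery of high-sucrose offspring was not analysed here.

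Total counts per library ran from 10388231 to 15420546. Levels are given as CPM, counts scaled to a common library size after TMM normalization over the 9 libraries. Smooth muscle markers were abundant in every library, but pulmonary replicate 4 had the lowest sum, 3508 CPM over 8 genes, against 11254 to 40214 CPM elsewhere. The same library was the highest of the 9 for 8 of 8 T cell markers, 8 of 8 B cell and plasma cell markers and 7 of 7 lung epithelium markers. All 8 cardiac muscle markers were highest in pulmonary replicate 2. Results that rest on pulmonary replicate 4 are therefore given with and without it.

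Most cells of an adult artery are quiescent, and the genes studied here are transcribed mainly in cells that are passing through the cycle. Mcm6 and Rrm2 serve DNA replication in S phase, while Top2a, Aurkb, Tpx2 and Ube2c act in G2 and mitosis, and Mki67 is present in all phases of cycling cells and is the standard marker of them. In mammals the S phase genes are induced by E2F factors, and the mitotic genes are held off in resting cells by the DREAM complex and later induced by MuvB together with B-Myb and FoxM1, through CHR and CCAAT elements in their promoters. In bulk RNA, fewer cycling cells and less RNA per cycling cell cannot be told apart.

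The promoters of 3 of the 7 genes were in the RefSeq table used here (build GRCr8). They are shown because these genes had their highest level in the same library, and because the elements named above can be looked for in them. Each runs from 250 bases before to 50 bases after the annotated start, on the minus strand, and the position of Mcm6 is chr13:42404303-42404602, of Mki67 chr1:199952544-199952843 and of Top2a chr10:84473044-84473343. Capitals mark every match, on either strand, to CHR (TTTGAA or TTCGAA), to the CCAAT box (CCAAT) or to the core of an E2F site (TTGGCGC or TTGCCGC or TTCGCGC or TTCCCGC).
Mcm6: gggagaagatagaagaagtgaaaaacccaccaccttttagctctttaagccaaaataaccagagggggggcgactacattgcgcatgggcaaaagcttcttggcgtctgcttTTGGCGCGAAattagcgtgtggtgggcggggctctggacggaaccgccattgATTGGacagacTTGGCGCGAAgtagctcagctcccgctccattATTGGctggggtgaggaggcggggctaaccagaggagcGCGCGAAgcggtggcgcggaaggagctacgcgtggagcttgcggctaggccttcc
Mki67: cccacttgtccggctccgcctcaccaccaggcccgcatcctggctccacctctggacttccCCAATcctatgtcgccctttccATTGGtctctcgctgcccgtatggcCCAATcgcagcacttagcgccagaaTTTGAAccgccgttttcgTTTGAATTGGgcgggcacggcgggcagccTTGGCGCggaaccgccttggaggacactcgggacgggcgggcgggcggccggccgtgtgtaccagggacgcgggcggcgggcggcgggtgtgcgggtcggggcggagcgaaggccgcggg
Top2a: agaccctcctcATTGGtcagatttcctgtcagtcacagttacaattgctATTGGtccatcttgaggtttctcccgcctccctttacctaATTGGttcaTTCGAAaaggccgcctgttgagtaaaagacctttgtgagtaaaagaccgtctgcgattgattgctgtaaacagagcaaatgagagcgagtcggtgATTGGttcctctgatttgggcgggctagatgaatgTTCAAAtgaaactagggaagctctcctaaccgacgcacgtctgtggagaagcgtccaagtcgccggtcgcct

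The Mcm6 window held E2F cores and 2 CCAAT boxes and no CHR match. At −138 to −129 and at −75 to −66 from the start, E2F cores on the 2 strands overlapped each other, and a further core lay across the start (−5 to 2). The Top2a window held 4 CCAAT boxes and CHR matches at −152 to −147 and −22 to −17, with no E2F match. The Mki67 window held all 3 kinds, with CHR at −117 to −112 and −99 to −94, the second overlapping a CCAAT box, and an E2F core at −70 to −64. Of 33469 rat promoters of this length, 19.7% held a CHR match, 37.5% a CCAAT box and 9.52% an E2F core. Among wider lists of cell cycle genes, 19 of 25 mitotic promoters held CHR and 3 of 25 an E2F core. Of 16 S phase promoters, 3 held CHR and 11 an E2F core. The CCAAT box was common in both lists, in 19 of 25 mitotic (76%) and 11 of 16 S phase promoters (68.8%). A match describes the letters in the window and does not show that a factor binds there.

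Mcm6 encodes a subunit of the MCM helicase, which unwinds DNA at the replication fork. It had 14.7, 10.7 and 18.7 CPM in replicates 1, 2 and 3 of the high-sucrose group, 10.02, 8.79 and 89.7 CPM in pulmonary replicates 1, 2 and 4, and 10.4, 12.4 and 10.5 CPM in mesenteric control replicates 1, 2 and 3. Apart from pulmonary replicate 4 its levels spanned little more than a doubling, and the groups overlapped. Rrm2, the S phase subunit of ribonucleotide reductase, which makes the deoxynucleotides for DNA synthesis, had 0.68, 2.09 and 3.08 CPM in high-sucrose, 1.56, 1.009 and 47.1 CPM in pulmonary and 0.66, 0.61 and 2.03 CPM in mesenteric control libraries, in the same order of replicates. Rrm2 thus stood on 7 to 32 reads in each library other than pulmonary replicate 4, which had 713. In RefSeq Rrm2 overlaps Cys1, and the reads of the pair cannot be told apart here.

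Mki67, whose protein coats mitotic chromosomes, had 1.90, 3.71 and 12.9 CPM in replicates 1, 2 and 3 of the high-sucrose group, 2.30, 1.51 and 227 CPM in pulmonary replicates 1, 2 and 4, and 1.98, 5.05 and 4.53 CPM in mesenteric control replicates 1, 2 and 3. Top2a, the topoisomerase that untangles sister chromatids, had 0.61, 3.14 and 12.7 CPM in high-sucrose, 1.31, 0.79 and 139.8 CPM in pulmonary and 1.39, 2.35 and 4.25 CPM in mesenteric control libraries, in the same order of replicates. For both genes high-sucrose replicate 3 came second after pulmonary replicate 4, and high-sucrose replicate 1 was the lowest of the 6 mesenteric libraries. The high-sucrose group therefore reached past the control range at the upper end, by replicate 3 alone. At the lower end, high-sucrose replicate 1 and control replicate 1 had 25 and 30 reads of Mki67 and 8 and 21 of Top2a. Their exact 95% Poisson intervals overlapped for both genes. These were 1.23 to 2.81 and 1.34 to 2.83 CPM for Mki67, and 0.26 to 1.20 and 0.86 to 2.12 CPM for Top2a. No difference at the lower end is read from these counts.

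Aurkb, the kinase of the chromosomal passenger complex, which corrects faulty attachments of chromosomes to the spindle, had 0.23, 2.47 and 3.27 CPM in replicates 1, 2 and 3 of the high-sucrose group, 0.66, 0.29 and 190.5 CPM in pulmonary replicates 1, 2 and 4, and 0.26, 1.30 and 1.20 CPM in mesenteric control replicates 1, 2 and 3. It had 2883 reads in pulmonary replicate 4 and 3 to 34 in each other library, so most of its levels carry a large counting error. The 3 reads in high-sucrose replicate 1 gave an exact 95% Poisson interval of 0.047 to 0.67 CPM, which covers counting error only. Tpx2, a spindle assembly factor that activates Aurora A, had 3.50, 6.47 and 6.55 CPM in high-sucrose, 8.22, 2.52 and 54.1 CPM in pulmonary and 3.43, 3.31 and 3.51 CPM in mesenteric control libraries, in the same order of replicates. It was the member with the tightest control group and the only 1 of the 7 whose second highest library was pulmonary replicate 1. Ube2c, the ubiquitin-conjugating enzyme that works with the anaphase-promoting complex to end mitosis, had 0.84, 1.62 and 3.66 CPM in high-sucrose, 0.41, 0.50 and 52.7 CPM in pulmonary and 0.46, 0.35 and 1.57 CPM in mesenteric control libraries.

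**Figure D1:**
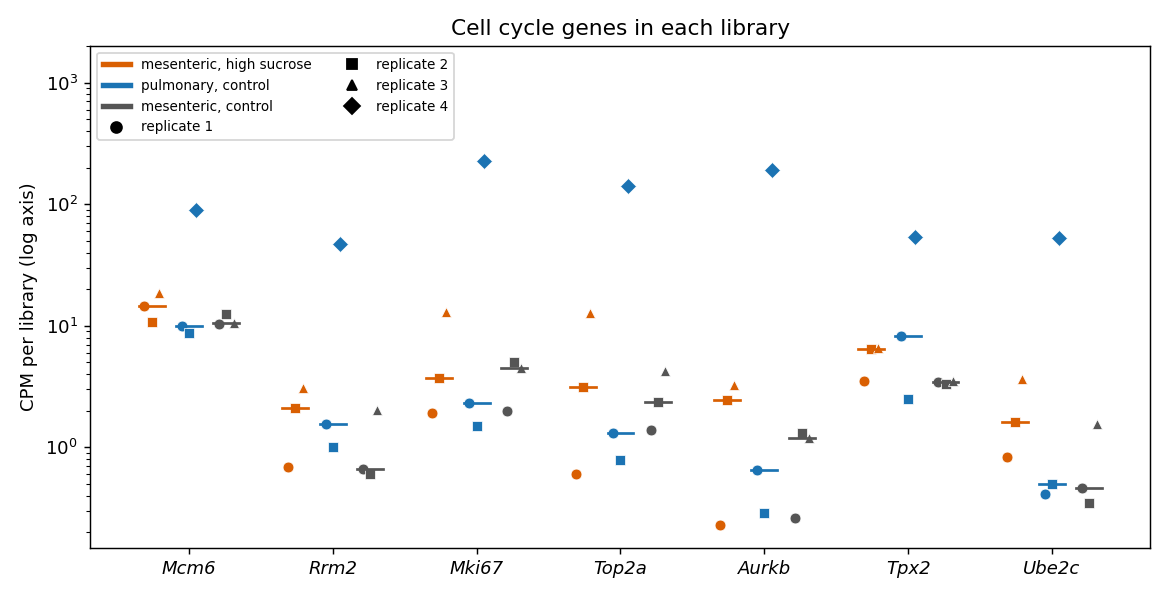
CPM of the 7 genes in each of the 9 libraries on a log axis, with 1 point per library, shaped by replicate number and coloured by group, and a bar at the group median. Pulmonary replicate 4 is the highest point for all 7 genes, such as 227 CPM for Mki67, and high-sucrose replicate 3 is the highest of the 6 mesenteric libraries for all 7.

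The order of the group means was the same for the 7 genes, pulmonary artery first, then high-sucrose and then control mesenteric artery. In no pair of groups, however, did the values separate for any of the 7. Over all genes tested, the groups lay apart for 6.05% in high-sucrose against control mesenteric artery and 14.1% in pulmonary against mesenteric control artery. For pulmonary against high-sucrose mesenteric artery no such share was computed. Mki67 averaged 6.17 ± 5.90 CPM in high-sucrose mesenteric, 76.8 ± 129.7 CPM in pulmonary and 3.85 ± 1.64 CPM in control mesenteric artery (SD, n = 3 each). In pulmonary artery the SD was thus larger than the mean. With pulmonary replicates 1 and 2 alone the pulmonary mean was below both mesenteric means for 5 genes, and between them for Rrm2 (1.28 CPM) and Tpx2 (5.37 CPM). For Mki67 it was 1.91 CPM, for Top2a 1.05 CPM and for Aurkb 0.47 CPM.

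The first comparison asked whether maternal sucrose was followed by a difference in the mesenteric artery of the offspring. None of the 7 genes passed edgeR's quasi-likelihood test in high-sucrose against control mesenteric artery, with an adjusted p of 1.00 for each after Benjamini-Hochberg adjustment over 13995 genes. All 7 had a log2 fold change above 0, where 50.3% of all genes tested had one. Their median was 0.83, beside 0.0024 over all genes. The fold changes ran from 0.40 ± 0.26 for Mcm6 (log2, SE) to 1.36 ± 0.79 for Ube2c, with 0.68 ± 0.35 for Tpx2, 0.68 ± 0.73 for Mki67, 0.83 ± 0.73 for Rrm2, 1.04 ± 0.97 for Top2a and 1.11 ± 0.96 for Aurkb. At an adjusted p under 0.05, 0% of all genes were called. At an unadjusted p under 0.05 there were 0 of the 7 and 1.99% of all genes, and DESeq2 and limma-voom also called 0 of the 7. With limma-voom and quality weights the median of the 7 was 0.28, and 6 of the 7 were above 0. High-sucrose and control libraries lay apart for 0 of the 7 genes and for 6.05% of all genes, with high sucrose higher for 2.82%. Over the alternative settings the adjusted p of the 7 stayed at 0.885 or more.

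High-sucrose replicate 3 was the highest mesenteric library for 7 of 7 genes, against 17.4% of all features kept over the 3 groups. Between high-sucrose replicates 3 and 1, Top2a differed 20.9-fold, Aurkb 14.3-fold, Mki67 6.78-fold, Rrm2 4.50-fold, Ube2c 4.37-fold, Tpx2 1.87-fold and Mcm6 1.27-fold. In replicate 1 Aurkb had 3 reads, Top2a 8, Rrm2 9 and Ube2c 11, so the ratios of these genes carry a large counting error. Without high-sucrose replicate 3 the median of the 7 was 0.33, Mki67 was at −0.46 and Top2a at −0.52. Without control replicate 3 the median was 1.36 and Ube2c was at 2.28. High-sucrose replicate 3 also had the largest sum of endothelial markers, 3873 CPM. The other high-sucrose libraries had 2259 and 1533 CPM and the controls 1458 to 3213 CPM. Of the 8 endothelial markers, 5 were highest of the mesenteric libraries in high-sucrose replicate 3, and Pecam1, Kdr and Erg were not. The T cell markers of that library summed to 9.82 CPM, where the controls had 9.71 to 13.0 CPM. Its B cell and plasma cell markers summed to 6.64 CPM, where the controls had 6.67 to 8.35 CPM. The part of endothelial content in the result was not tested.

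The second comparison was between the pulmonary and the mesenteric artery of controls. The 6 genes that passed the filter on low counts had log2 fold changes of 1.69 ± 0.93 for Mcm6, 2.66 ± 1.07 for Tpx2, 3.91 ± 1.61 for Rrm2, 4.15 ± 1.94 for Top2a, 4.32 ± 1.92 for Mki67 and 6.12 ± 2.47 for Aurkb (SE). None passed edgeR's test, with adjusted p of 0.57 to 0.64 over 14315 genes, of which 0.014% were called. Ube2c did not pass the filter and was not tested, since only 2 of the 6 libraries had enough reads for it. The genes at an unadjusted p under 0.05 were Rrm2, Aurkb and Tpx2, beside 8.53% of all genes. Libraries of the pulmonary and mesenteric groups lay apart for 0 of the 7 genes and 14.1% of all genes, with pulmonary artery higher for 6.78%. DESeq2 called 408 of all genes and limma-voom 33, with 0 of the 6 among them, but DESeq2 gave no adjusted p for 5 of the 6. With limma-voom and quality weights the median of the 6 was 0.0058, and 3 of the 6 were above 0.

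Without pulmonary replicate 4, 4 of the 6 tested genes had a log2 fold change below 0, and the median of the 6 was −0.60 in place of 4.03. Top2a was then at −1.33 ± 0.67, Mki67 at −1.01 ± 0.56, Aurkb at −0.94 ± 0.90 and Mcm6 at −0.25 ± 0.27 (SE). Rrm2 was at 0.22 and Tpx2 at 0.65. None of the 6 passed in that fit either. The direction of the pulmonary values for those 4 genes was therefore set by 1 library.

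**Figure D2:**
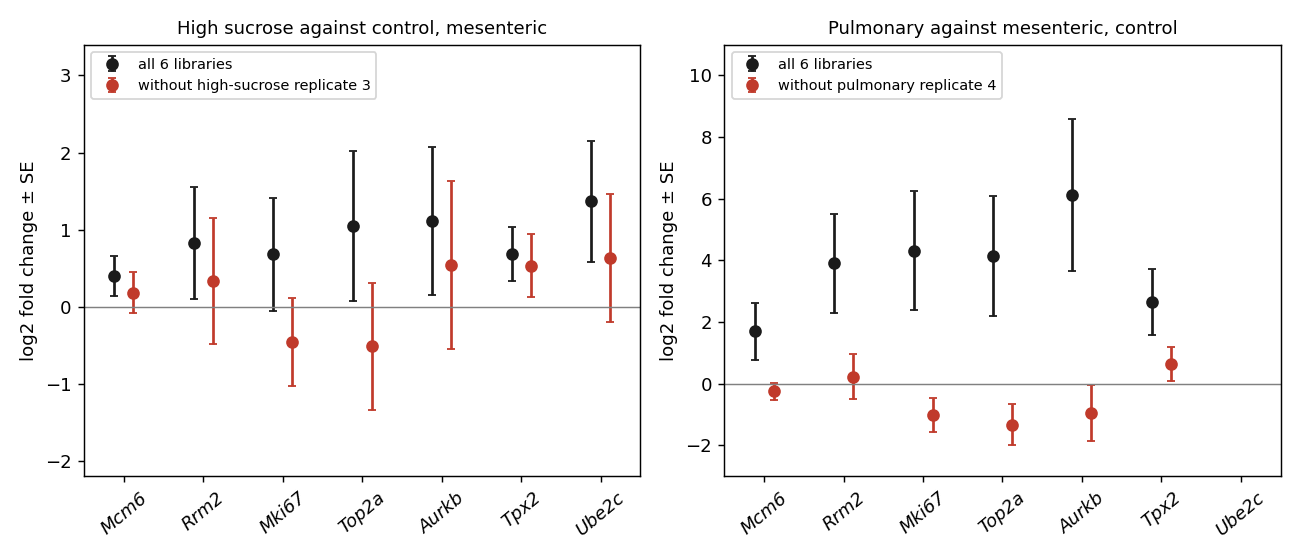
Log2 fold change with its SE for each gene in high-sucrose against control mesenteric artery (left) and pulmonary against mesenteric artery of controls (right), from all 6 libraries (black) and without the library with the highest levels (red). Without pulmonary replicate 4, Mki67, Top2a, Aurkb and Mcm6 lie below 0, and without high-sucrose replicate 3, Mki67 and Top2a do; Ube2c was not tested on the right.

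In pulmonary replicate 4 the 7 genes did not stand equally far above the other libraries. Aurkb was 58.2-fold above its next highest library, and only 5 of 14592 features kept over the 3 groups had a larger ratio. Mki67 was 17.6-fold, Rrm2 15.3-fold, Ube2c 14.4-fold and Top2a 10.999-fold above the next highest, and Tpx2 and Mcm6 were 6.59-fold and 4.80-fold above it. Over all features kept, the median of this ratio was 0.67, 29.1% were highest in pulmonary replicate 4 and 3.45% were over 5-fold above the next library. Against the mean of pulmonary replicates 1 and 2, the ratio ran from 9.54 for Mcm6 and 10.1 for Tpx2 to 403 for Aurkb. These ratios describe 1 library and have no replicate.

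The make-up of the summed reads of the 7 genes differed with it. Mcm6 gave 11.2% of them in pulmonary replicate 4 (95% exact binomial interval 10.7% to 11.8%), against 30.7% to 65.4% in the other 8 libraries. Aurkb gave 23.8% (23.0% to 24.6%), against 1.02% to 8.20%, and Mki67 28.3% (27.5% to 29.1%), against 8.47% to 21.2%. The shares of Top2a (17.5%) and Rrm2 (5.88%) lay within the range of the other 8 libraries. That of Tpx2 (6.76%) lay below it and that of Ube2c (6.58%) above it. The Ube2c interval (6.14% to 7.03%) overlapped that of high-sucrose replicate 3 (4.29% to 8.16%). Mcm6 had its largest share, 65.4%, in high-sucrose replicate 1. The intervals cover counting error only, and shares of reads are not corrected for gene length.

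Pulmonary replicate 4 also had the highest summed level of B cell, T cell, lung epithelium and macrophage markers of the 9 libraries, and the lowest of smooth muscle, endothelium, fibroblast and adipocyte markers. Its B cell and plasma cell markers summed to 3667 CPM, against 13.6 and 42.6 CPM in pulmonary replicates 1 and 2, and its T cell markers to 527 CPM, against 17.3 and 6.41 CPM. Of these, Cd79a, which serves signalling by the B cell receptor, was at 492 CPM, and Cd3e, which carries signals for the T cell receptor, at 88.6 CPM. In the 6 mesenteric libraries the B cell sum was 2.66 to 8.56 CPM in the high-sucrose and 6.67 to 8.35 CPM in the control group, and the T cell sum 7.00 to 9.99 CPM and 9.71 to 13.0 CPM. Lung epithelium markers summed to 682 CPM in pulmonary replicate 4 and to 6.41 and 70.3 CPM in replicates 1 and 2, with 3, 0 and 0 of the 7 markers at 0 reads in replicates 1, 2 and 4. Macrophage markers summed to 418 CPM there and 146 to 339 CPM elsewhere, but they did not move together. Only 4 of the 8 were highest in pulmonary replicate 4. Their ratios to the highest of the other 8 libraries ran from 0.14 to 2.96. The sums of endothelium, smooth muscle, fibroblast and adipocyte markers were 719, 3508, 2069 and 178 CPM in pulmonary replicate 4. The lowest of the other 8 libraries had 1458, 11254, 6140 and 631 CPM. Every smooth muscle marker was lowest in pulmonary replicate 4, but the other 3 lists did not move as a whole. Of the endothelium list, Cdh5, Kdr, Egfl7 and Esam were lower in pulmonary replicate 1. Of the fibroblast list, Col1a1 and Col1a2 were lower in high-sucrose replicate 2. Ucp1, of the adipocyte list, was lower in each mesenteric library. Cardiac muscle markers summed to 1586 CPM in pulmonary replicate 4 and 15117 CPM in replicate 2, and granulocyte and mast cell markers to 22.5 CPM, within the 13.6 to 43.2 CPM of the other 8 libraries. No T cell or B cell marker was at 0 reads in any library, and the part of these cells in the level of the 7 genes was not tested.

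**Figure D3:**
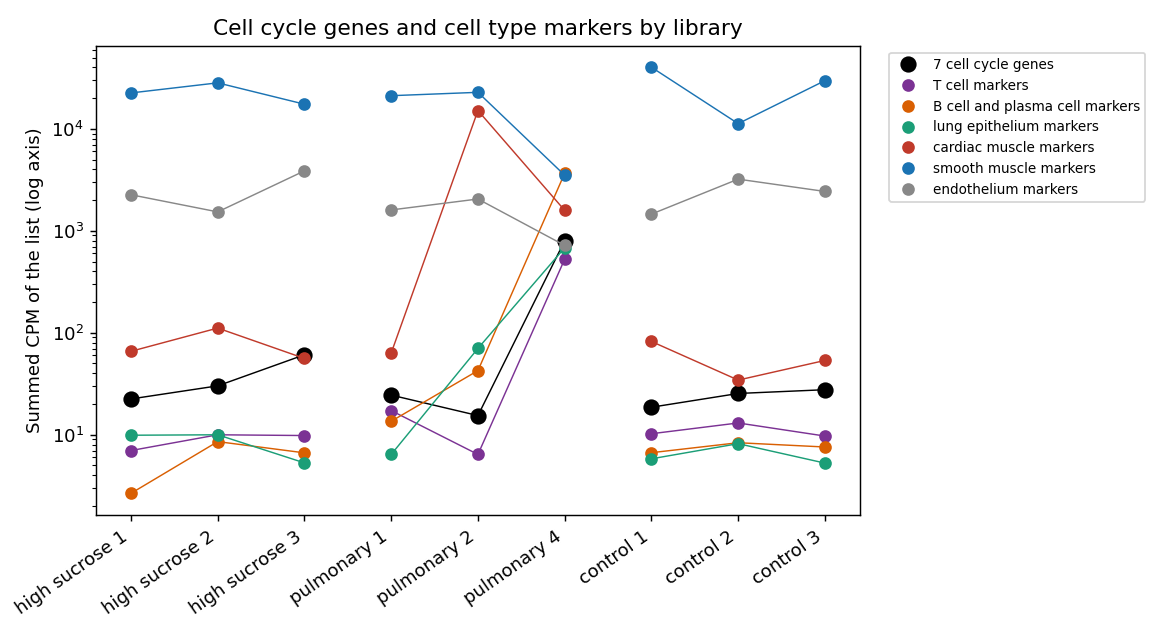
Summed CPM of the 7 cell cycle genes and of 6 lists of cell type markers in each library, on a log axis, with libraries of a group joined by a line. In pulmonary replicate 4 the cell cycle sum reaches 800.5 CPM, against 15.4 to 60.9 CPM elsewhere, and the T cell, B cell and lung epithelium sums are the highest of the 9 libraries while those of smooth muscle and endothelium are the lowest.

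Partners of the 7 genes were followed in 4 wider lists of 80 cell cycle genes, of which 76 were found. The other subunits of the MCM helicase were all highest in pulmonary replicate 4, with Mcm5 22.4-fold, Mcm3 20.9-fold, Mcm2 6.55-fold, Mcm7 4.70-fold and Mcm4 2.78-fold above the next library. Among the 6 mesenteric libraries they did not share the order of Mcm6, since none of these 5 was highest in high-sucrose replicate 3. Rrm1, the large subunit of ribonucleotide reductase, which is less tied to S phase than Rrm2, was at 95.01 CPM in pulmonary replicate 4 and 36.9 to 46.5 CPM elsewhere. The partners of Aurkb in the passenger complex were Incenp, at 42.8 CPM against 2.17 to 4.91 CPM elsewhere, Cdca8, at 37.5 against 0.50 to 2.41 CPM, and Birc5, at 60.8 against 0 to 1.66 CPM. Aurka, the kinase that Tpx2 activates, was at 25.4 CPM against 1.45 to 3.95 CPM, and Cdc20, an activator of the anaphase-promoting complex served by Ube2c, at 50.3 CPM against 1.14 to 6.93 CPM.

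**Figure D4:**
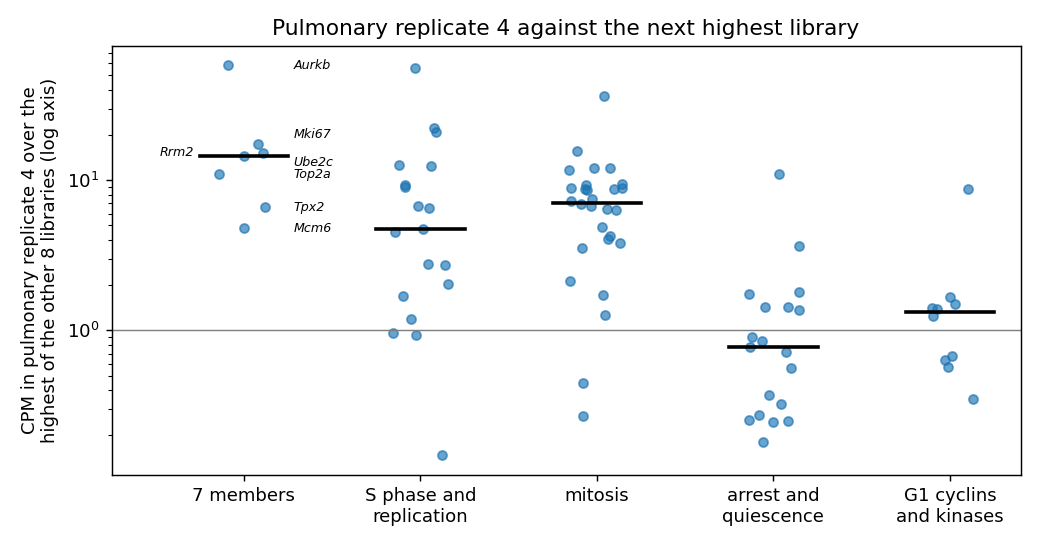
Ratio of the CPM in pulmonary replicate 4 to the highest of the other 8 libraries, on a log axis, for each gene of the 5 cell cycle lists, with a bar at the list median. The medians are 14.4 for the 7 genes, 7.09 for mitosis, 4.70 for S phase and replication, 1.32 for G1 cyclins and kinases and 0.78 for arrest and quiescence.

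In high-sucrose against control mesenteric artery, 0 genes of the 4 wider lists passed edgeR's test. Of 23 tested mitotic genes, 21 had a log2 fold change above 0 (median 0.36), and of 16 S phase genes 7 did (median −0.0072). The smallest p-values of the mitotic list belonged to Anln, which scaffolds the contractile ring (0.69 ± 0.19, SE), Prc1, which bundles microtubules of the central spindle (1.21 ± 0.49), and the mitotic kinase Plk1 (0.69 ± 0.49). Those of the S phase list belonged to Uhrf1, which maintains DNA methylation (1.70 ± 0.60), Mcm4 (0.28 ± 0.22) and Mcm2 (0.28 ± 0.22). Each of these had an adjusted p of 1.00 in edgeR's test. Anln had 18.4, 22.2 and 17.3 CPM in the 3 high-sucrose libraries and 12.6, 11.7 and 11.6 CPM in the controls, in order of replicate. Without high-sucrose replicate 3 the mitotic median was −0.21, with 9 of 23 genes above 0.

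Genes of arrest and quiescence showed no common direction in that comparison, with 10 of 18 tested genes above 0 (median 0.023). Cdkn1c, the CDK inhibitor p57, had 9.05, 11.99 and 12.8 CPM in the 3 high-sucrose libraries, all below the 20.0, 17.9 and 17.5 CPM of the controls, in order of replicate. Its log2 fold change was −0.71 ± 0.21 (SE), with an adjusted p of 1.00 by edgeR. The next smallest p-values were those of Lin54, the CHR-binding subunit of DREAM (0.41 ± 0.20), and Ccng1, a p53 target (0.37 ± 0.22). Of 9 G1 cyclins and kinases, 4 were above 0 (median −0.039), and those with the smallest p were Cdk2 (0.42 ± 0.20), Cdk6 (0.56 ± 0.36) and Ccnd1 (−0.46 ± 0.37). Of the 12 genes named here by smallest p, high-sucrose libraries all lay above the controls for Anln, Lin54 and Cdk2. They all lay below for Cdkn1c. The groups lay apart for 6.05% of all genes, but a choice by p in the same comparison favours genes whose groups lie apart. The shares are therefore not comparable, and no excess is read from them.

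In pulmonary against mesenteric control artery, 22 of 23 tested mitotic genes (median 2.64) and 16 of 17 S phase genes (median 1.28) had a log2 fold change above 0, beside 54.5% of all genes, and 0 passed edgeR's test. The mitotic genes with the smallest p were Incenp (2.52 ± 1.11, SE), Birc5 (4.47 ± 1.98) and Plk1 (3.36 ± 1.497). Among S phase genes Uhrf1 was at 4.46 ± 1.79, Mcm10 at 3.82 ± 1.48 and Cdc45 at −1.37 ± 0.44. Cdc45 stood on 2 lines of the files, the other line held 9 to 31 reads in each library except 319 in pulmonary replicate 4, and which line is the gene cannot be told from the files. Without pulmonary replicate 4, 3 of 21 mitotic genes (median −0.90) and 6 of 16 S phase genes (median −0.14) were above 0.

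Of 18 tested genes of arrest and quiescence, 8 were above 0 in pulmonary against mesenteric artery (median −0.061), and without pulmonary replicate 4, 3 of 18 were (median −0.45). Gadd45a, a growth arrest gene induced by DNA damage, had 11.4, 14.9 and 20.0 CPM in pulmonary replicates 1, 2 and 4 and 46.5, 48.6 and 48.5 CPM in mesenteric control replicates 1, 2 and 3. Its log2 fold change was −1.65 ± 0.27 (SE, adjusted p = 0.159 by edgeR), and all 3 pulmonary libraries lay below the controls. Btg2, an antiproliferative early response gene, was at −1.61 ± 0.51 (adjusted p = 0.484 by edgeR) and Cdkn1c at −0.94 ± 0.40 (adjusted p = 0.593 by edgeR). The groups lay apart for Btg2, Cdkn1c and Cdc45 too, as they did for 14.1% of all genes. These genes and Gadd45a were named for their small p in this comparison, which favours groups that lie apart. Both comparisons use the same mesenteric controls. Among G1 genes Myc was at −1.65 ± 0.69, E2f2 at 1.94 ± 1.08 and E2f3 at 0.76 ± 0.47, with 6 of 9 above 0 (median 0.41). Without pulmonary replicate 4 the G1 list had 3 of 9 genes above 0 and a median of −0.031.

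**Figure D5:**
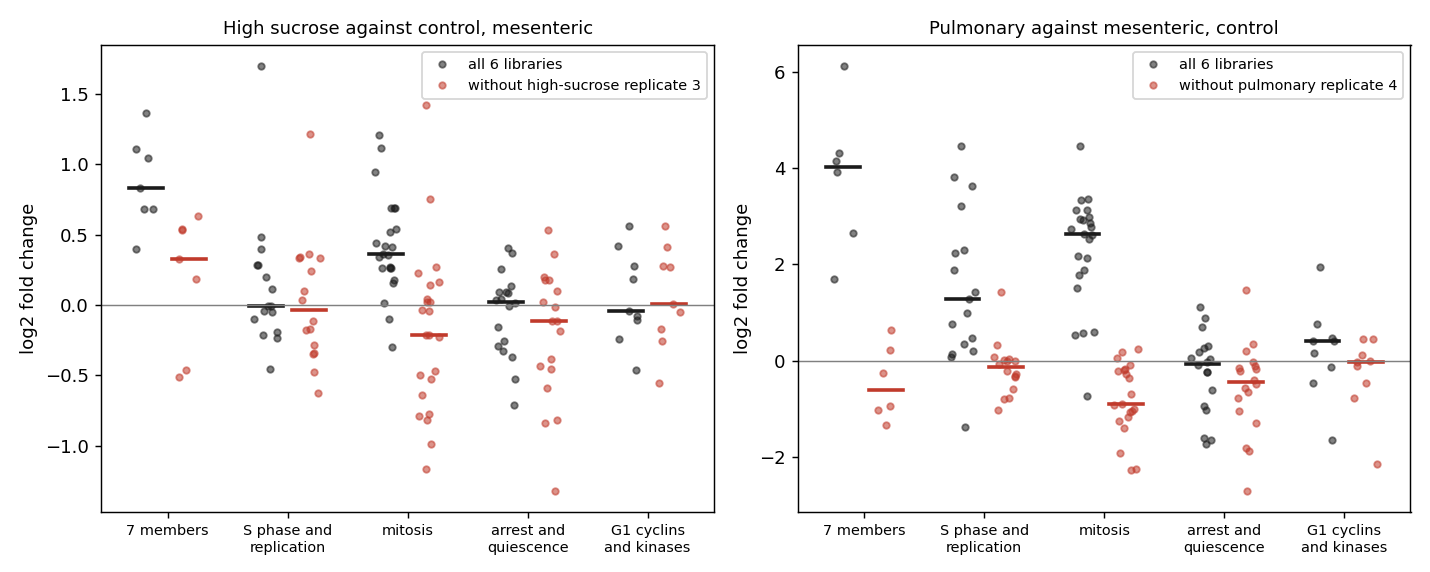
Log2 fold change of each tested gene of the 5 cell cycle lists in high-sucrose against control mesenteric artery (left) and pulmonary against mesenteric artery of controls (right), from all 6 libraries (black) and without the library with the highest levels (red), with bars at the list medians. The mitotic median is 0.36 on the left and −0.21 without high-sucrose replicate 3, and 2.64 on the right and −0.90 without pulmonary replicate 4.

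The levels of the 7 genes were positively correlated over the libraries, most strongly where pulmonary replicate 4 was included. Pairwise Pearson correlations of log2 CPM ran from 0.87 to 0.98 over all 9 libraries. Over the 8 libraries without pulmonary replicate 4 they ran from 0.25 to 0.95 with a median of 0.66, and all 21 pairs were above 0. Over the 6 mesenteric libraries the median was 0.72, pairs with Mcm6 ran from 0.26 to 0.57, and pairs among the other 6 genes were at least 0.59. Spearman rank correlations ran from 0.43 to 0.92 over 9 libraries and from 0.20 to 1 over the 6 mesenteric ones. For Mki67 with Rrm2, Tpx2 or Ube2c the rank correlation over the mesenteric libraries was 0.31. The named genes closest to the mean pattern of the 7 over 9 libraries, out of 12632, were Plk1 (r = 0.995), Aspm (0.987), Bub1b (0.986), Pttg1 (0.981), Cep72 (0.981), Ccnf (0.979), Kif18b (0.979), Ankle1 (0.979), Carmil2 (0.979) and Runx3 (0.978). All of these were highest in pulmonary replicate 4, at 12.9 CPM for Cep72 to 107 CPM for Carmil2. A total of 420 named genes had a correlation above 0.9, and these values are descriptions over libraries that share depth and tissue content.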

How the data were processed

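Whole-number counts per gene were deposited by the authors, 1 table for each of the 9 libraries, with no normalization. The build rn7 is named in the submitters' processing notes. Per the labels' protocols, mRNA was enriched with oligo(dT) and copied with random primers. The library reagent marks the second strand. For the aligner, counter, annotation and counted strand, nothing is given in the sources at hand, so reads shared with overlapping genes (Cys1 at Rrm2, a tRNA gene at Mcm6, LOC120102102 at Tpx2 in RefSeq) cannot be separated. Total counts were 10388231 to 15420546.

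Genes were tested with the quasi-likelihood test of edgeR 4.0.16 (R 4.3.3), with TMM factors, filterByExpr and robust dispersion, on the 6 libraries of a comparison, adjusted by Benjamini-Hochberg over all genes tested at a threshold of 0.05. SE is the log2 fold change over the square root of F. CPM use TMM over 9 libraries, and log2 CPM a prior count of 2. DESeq2 1.42.0 and limma-voom (limma 3.58.1) with quality weights were among the alternatives. The test was tested on simulated data. Treatments C and H in the labels were read as the control and high-sucrose groups of the design text. Libraries within each group differed by far more than counting error (chi-square over its degrees of freedom, 42.5 to 312). Each was counted as 1 sample, though such a spread does not show that the samples are different animals.

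The 7 genes and the gene lists were chosen with earlier results of these data known. Beyond the 7, the rule for named genes takes from each wider cell cycle list the 3 with the smallest p per comparison. It also takes the first 2 genes of each marker list and the 10 most alike in pattern. Of the marker genes only Cd79a and Cd3e, both highest in pulmonary replicate 4, are given with their levels. The other lists appear as sums, with single genes named where they did not follow the sum. Complex partners were picked from the lists by their known roles. Of 80 genes in the wider lists, E2f1, Ndc80, Cks2 and Gas1 were not found by symbol, nor was the marker Foxj1. Values of 1 single marker gene are not reported here.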

Additional observations from a re-analysis of the deposited data

How the results depend on the processing

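Low counts limit most values: outside pulmonary replicate 4, Aurkb and Ube2c rest on 3 to 38 reads per library. In every alternative with replicates in both groups, 0 of the members tested passed, but some fits did not test all 7. In the pulmonary comparison DESeq2 gave no adjusted p for 5 of the 6 tested, so these could not pass. With other scalings (median ratio, upper quartile, library totals) the median of the 7 was 0.79 to 0.83 in the sucrose comparison. That of the 6 tested was 4.03 to 4.07 in the pulmonary one.

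In high-sucrose against control mesenteric artery DESeq2 called 3 genes and each other alternative 0. With voom and quality weights the median of the 7 was 0.28, Mki67 was at 0.067 and Top2a at −0.38; the cause was not tested. With 1 library left out, Mki67 ran from −0.46 to 1.12 and Top2a from −0.52 to 1.59.

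In pulmonary against mesenteric control artery 2 genes passed, and 408 with DESeq2, 33 with voom, 38 with all 9 libraries in 1 fit and 0 with pulmonary replicates 2 and 4 both left out. Voom with quality weights gave a member median of 0.0058, with Mki67 at −0.34, Top2a at −0.74 Aurkb at −0.0059, Rrm2 at 0.60 and Tpx2 at 0.62; the cause was not tested. With pulmonary replicate 1 alone, where it is assumed to vary like the controls, the median was −0.48, Mcm6 −0.17, Mki67 −0.75, Top2a −1.02, Aurkb −0.48, Rrm2 0.50 and Tpx2 1.24. With 1 library left out, 0 to 22 genes passed (22 without pulmonary replicate 4), the median ran from −0.60 to 4.71, Mcm6 from −0.25 to 2.14, Mki67 from −1.01 to 4.88, Top2a from −1.33 to 4.71 and Aurkb from −0.94 to 6.69, the lowest fold change each time without pulmonary replicate 4.

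With the replicate number as a block, 36 genes passed in the pulmonary comparison, the member median was −0.44, Mcm6 −0.30, Mki67 −0.79, Top2a −0.83, Aurkb −0.57, Rrm2 0.97 and Tpx2 0.45. In the sucrose comparison the block changed no call, and the member median was 0.63. Pulmonary replicate 4 and control replicate 3 share no number with the other group, so the block leaves them out of the contrast. The numbers were not taken as pairs: same-numbered deviations correlated at 0.20, −0.28 and 0.12 between the mesenteric groups and at 0.17 and −0.17 between tissues.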

Other observations

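After the data were seen, the likeness to the mean pattern of the 7 genes was also computed over the 8 libraries without pulmonary replicate 4. Plk1 was again first (r = 0.972), and Kif18b (0.963) and Aspm (0.940) were again among the closest 10, joined by the mitotic genes Cep55 (0.948) and Cenpf (0.939). The other 5 were Phip (0.964), RT1-T24-4 (0.956), Samd10 (0.948), Cert1 (0.945) and Atg9b (0.943), and 21 named genes were above 0.9, where 420 were over 9 libraries.

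Foxm1 encodes a transcription factor of mitotic genes. It was at 0.066 CPM in pulmonary replicate 4 and at no more than 0.25 CPM in the other 8 libraries. Such levels rest on very few reads, and mesenteric control replicate 3 and high-sucrose replicates 1 and 2 were at 0 CPM. The known Foxm1 targets Plk1, Ccnb1 and Aurkb were highest in pulmonary replicate 4 at 46.7, 53.0 and 190.5 CPM. Whether the Foxm1 line collects the reads of the gene was not tested, so nothing is read from this contrast. Ccne1, the cyclin of S phase entry, was at 25.7 CPM in pulmonary replicate 4 and at 0 to 0.46 CPM elsewhere. Cdkn1a, the CDK inhibitor p21, was lowest in that library, at 32.4 CPM against 45.7 to 181 CPM in the other 8. These genes were picked after their values were seen.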
